A study of Mus musculus with 9 samples.

Results

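The 10 genes Egr1, Egr2, Egr3, Nr4a1, Nr4a2, Nr4a3, Ier2, Ier3, Csrnp1 and Klf4, which encode transcription factors and other products of the early response of cells to stimuli, were followed in mouse ovary across diets. They were chosen by their FPKM in the 3 groups: the list of symbols was drawn up with the lower values of these genes in both diet groups already known. What follows on those values is therefore a description. Each of the 10 was found as a single row among the 33450 rows of the table, with no other symbol in the row and the status OK in every group. RNA had been sequenced from the whole ovaries of 9 mice of the inbred strain C57BL/6J at 15 weeks of age. The HFOB group was 3 mice that had become obese after 10 weeks on a diet with 60% fat. The HFLN group was 3 mice that had stayed lean over the same time on the same diet, and the control group was 3 mice fed standard chow with 16% fat. HFOB and HFLN were thus set apart by how the animals responded and not by assignment, and the labels name no engineered allele in any group.

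All levels are FPKM as the authors computed them, a measure that divides mapped fragments by transcript length and by library size, so that genes can be set side by side. The authors gave 1 FPKM per group with a lower and an upper bound, called the interval here. No source used here states the confidence level of these bounds. Single mice were not analysed, so levels carry no SD, n or p-value, and a difference may rest on fewer than the 3 mice of a group. Depth is unknown too. Folds given on the log2 scale are of FPKM + 1, which understates the difference of low genes, and those given as a plain ratio are of FPKM itself. A row was called higher or lower when it differed at least 2-fold on the log2 scale and the intervals of both groups lay apart. Rows of at least 1 FPKM in a group or more were considered, 16935 in all. Every one of the 10 genes reached that level, Nr4a3 in the control group alone, so that its difference from control was in part set by this filter.

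Immediate-early genes are transcribed within minutes of a signal, without the need for newly made protein. Kinases of the ERK and protein kinase A routes phosphorylate factors already bound at their promoters: SRF and its ETS-type partners at the CArG box, and CREB at the cyclic AMP response element. EGR1, EGR2 and EGR3 are zinc-finger factors that bind a shared GC-rich site and are held back by the corepressors NAB1 and NAB2. NR4A1, NR4A2 and NR4A3 are orphan nuclear receptors that bind the NBRE site and are active without a known hormone. In the rodent ovary Egr1 and Nr4a1 are known to be induced by luteinising hormone.

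Sequence upstream of the start was available for 7 of the 10 genes, all but Egr1, Egr3 and Ier2. Stretches of Nr4a1 and Nr4a2 are shown because they share a feature that the choice of genes did not use, and that of Egr2 because it holds the 1 CArG box found. Capitals mark TGACG on either strand (the core of the cyclic AMP response element), the EGR site GCGNGGGCG on either strand and the CArG box. Each runs 5′ to 3′ on the strand of its gene, from RefSeq on GRCm38.p6, and lies outside the exons that GENCODE M21 gives for the gene.
Nr4a1 (chr15:101266603-101266820, plus strand): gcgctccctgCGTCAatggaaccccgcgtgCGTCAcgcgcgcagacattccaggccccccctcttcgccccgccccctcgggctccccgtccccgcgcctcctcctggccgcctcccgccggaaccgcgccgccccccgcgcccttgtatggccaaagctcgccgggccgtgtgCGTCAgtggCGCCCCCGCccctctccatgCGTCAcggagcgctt
Nr4a2 (chr2:57124059-57124213, minus strand): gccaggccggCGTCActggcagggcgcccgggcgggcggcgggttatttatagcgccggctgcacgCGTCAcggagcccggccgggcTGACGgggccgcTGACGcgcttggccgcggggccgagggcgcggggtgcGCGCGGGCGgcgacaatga
Egr2 (chr10:67537748-67537828, plus strand): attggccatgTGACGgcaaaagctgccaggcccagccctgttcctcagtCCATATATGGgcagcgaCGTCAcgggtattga

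In the 250 bases upstream, Nr4a1, Nr4a2 and Nr4a3 each held 4 matches to TGACG. No stretch of Nr4a3 is printed, because the RefSeq span of that gene begins inside its window. Its matches that begin at -213, -205 and -147 lie within that span, so they may not be upstream of every start. Of 17008 genes with such a window, 36 held 4 or more, or 0.212%, and 20.8% held at least 1. Of the 10364 of them that reached 1 FPKM in a group, 0.328% held 4 or more and 26.3% at least 1. The cutoff of 4 was not planned and equals the count in the Nr4a genes. The shares with 4 or more therefore describe these genes and give no support. The core was found in 6 of the 7 genes with a window, with 2 matches in Egr2, 1 each in Csrnp1 and Klf4, and none in Ier3. The full element TGACGTCA was found in 0 of the 7 and in 2.09% of all windows. A CArG box was found in Egr2 alone, against 1.41% of all windows, and the EGR site in Nr4a1, Nr4a2 and Klf4, against 6.36%. The NBRE site AAAGGTCA was found in 0 of the 7 and in 1.15% of all windows, the ETS core CCGGAA in Nr4a1 alone (15.2% of all) and TATAAA in Nr4a2 alone (12.2% of all). Among the 10364 genes the full element was found in 2.71%, a CArG box in 1.12% and the EGR site in 8.91%. The NBRE site was found in 0.791% of them, the ETS core in 21.7% and TATAAA in 6.7%. These are letter matches and not sites of binding, and windows rich in GC hold more of the GC-rich motifs: the windows of Nr4a1 and Nr4a2 were 74.4% and 80% GC, against a median of 55.6%. The start that a window precedes is not always the 5′ end of the locus deposited for the gene's row: it lay 12571 bases from that end in Nr4a1, 96 in Nr4a3, 84 in Csrnp1 and 0 in the other 4. Against the span of the gene in RefSeq, which can hold further starts, it lay 12944 bases inside the 5′ end in Nr4a1, 3400 in Egr2 and 227 in Nr4a3, and at that end in the other 4. Counted on 1 transcript per gene, the 10 genes had a median of 3.5 exons over 5280.5 bases. The medians were 9 exons over 22837 bases in 12355 protein-coding genes. Not all of the 10 were compact: Nr4a3 had 8 exons over 41293 bases, and Nr4a1 and Nr4a2 had 7 and 8 exons.

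**Figure D1:**
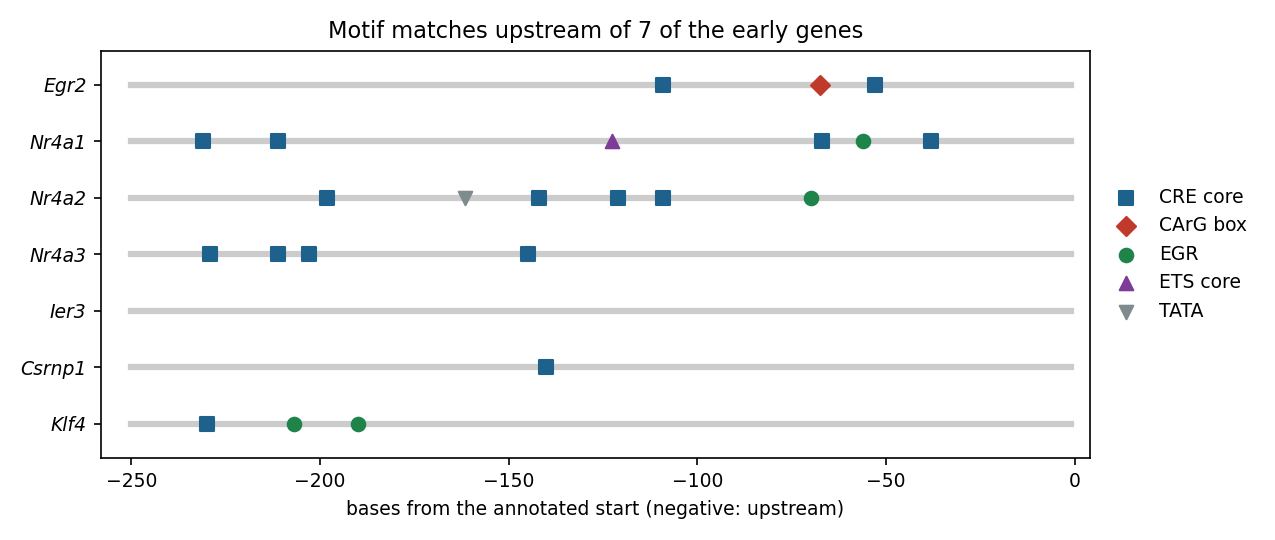
Positions of motif matches in the 250 bases upstream of 7 of the early genes, in bases from the annotated start. Each symbol is a match on either strand (CRE core: the core of the cyclic AMP response element), and the Nr4a genes carry 4 matches to the CRE core each.

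The ovarian identity of the libraries was plain from their markers. The granulosa gene Amh stood at 187, 176 and 181 FPKM in HFOB, HFLN and control, and the oocyte gene Gdf9 at 56.3, 50.7 and 51.4. Ovgp1 of oviduct epithelium was also present, at 307, 432 and 369 FPKM, and Adipoq of adipocytes at 21.5, 11.9 and 14.7. Whole-ovary values cannot tell apart fewer cells of a type and less RNA per cell. Across protein-coding rows the median log2 fold was -0.01 in HFOB against control and 0.00 in HFLN against control.

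All 10 genes stood highest in the control group. Over all rows considered the control group was the highest in 36.9%. The 10 genes spanned a wide range of levels. In control the order was Ier2, Ier3, Egr1, Nr4a1, Csrnp1, Klf4, Egr2, Nr4a2, Egr3 and Nr4a3, and neighbours in it had overlapping intervals except Nr4a1 over Csrnp1 and Klf4 over Egr2, whose intervals lay apart. In HFOB and in HFLN the order was Ier2, Egr1, Ier3, Nr4a1, Klf4, Csrnp1, Nr4a2, Egr2, Egr3 and Nr4a3, so that Ier3 and Egr1, Csrnp1 and Klf4, and Egr2 and Nr4a2 had traded places. In both diet groups the intervals of all neighbours overlapped.

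**Figure D2:**
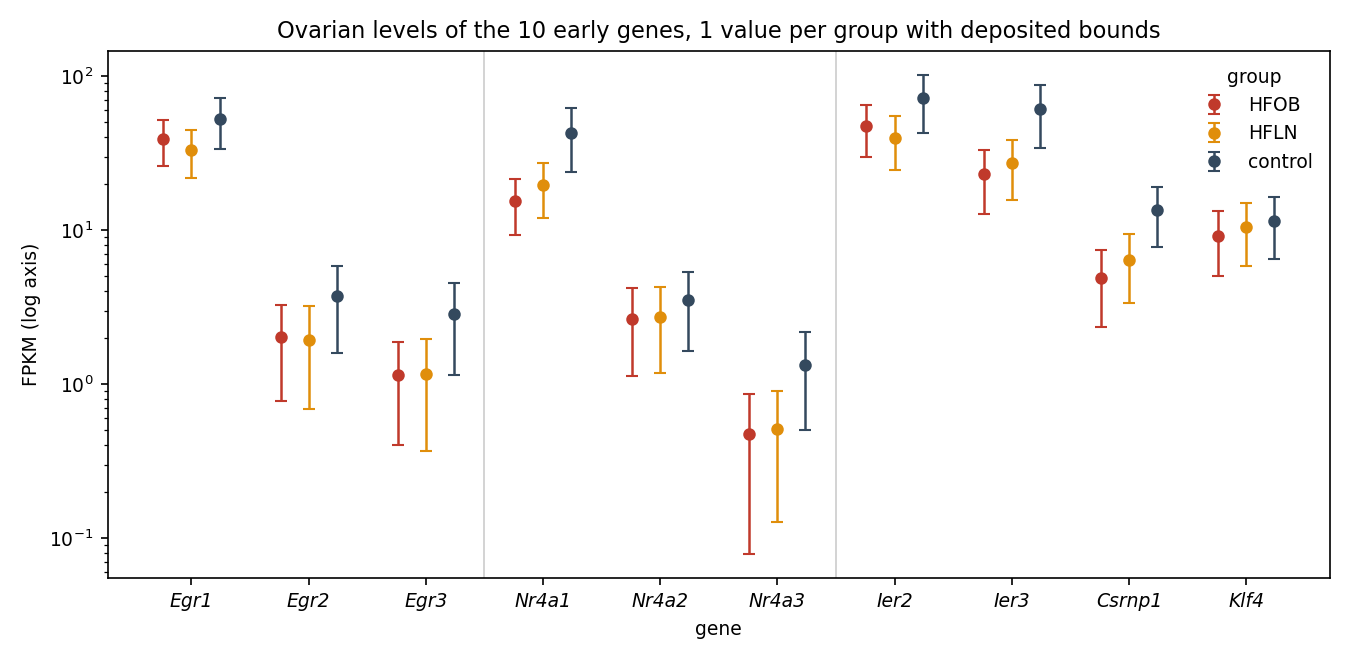
Deposited FPKM of the 10 early genes on a log axis, with 1 point per group (HFOB, HFLN and control from left to right) and bars for the deposited lower and upper bounds. The control point is the highest for every gene, and the HFOB and control bars lie apart for Nr4a1, Ier3 and Csrnp1.

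Among the zinc-finger factors, Egr1 was by far the most abundant. It stood at 38.9 FPKM in HFOB (interval 25.9 to 51.9), 33.3 in HFLN (21.8 to 44.8) and 52.5 in control (33.5 to 71.5). HFOB was 25.9% and HFLN 36.6% below control, with overlapping intervals in each case. Egr2, which directs myelination in Schwann cells and tolerance in T cells, stood at 2.02 FPKM in HFOB (0.772 to 3.27), 1.94 in HFLN (0.689 to 3.20) and 3.73 in control (1.59 to 5.87). Its plain ratio to control was 0.542 in HFOB and 0.521 in HFLN, so both diet groups sat at a like level below control. Egr3, which acts beside Egr2 in muscle spindles and lymphocytes, stood at 1.14 FPKM in HFOB (0.402 to 1.88), 1.16 in HFLN (0.365 to 1.95) and 2.83 in control (1.15 to 4.51). It had the lowest ratios of its family, 0.403 in HFOB and 0.409 in HFLN, yet its intervals still overlapped those of control by 0.73 and 0.8 FPKM. None of the Egr genes was called in any comparison.

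Among the orphan receptors, Nr4a1 (RefSeq span on GRCm38.p6: chromosome 15, 101253902 to 101274795), whose upstream stretch is shown above, was the abundant member. It stood at 15.3 FPKM in HFOB (9.23 to 21.5), 19.5 in HFLN (11.9 to 27.0) and 42.8 in control (24.0 to 61.5). The HFOB interval ended 2.5 FPKM below that of control and the call was lower, at a log2 fold of -1.42 and a plain ratio that puts HFOB 2.79-fold below control. In HFLN it was 2.2-fold below control in plain ratio, with a log2 fold of -1.10, but the intervals overlapped by 3.08 FPKM and no call was made. Nr4a2, best known for its role in dopamine neurons, stood at 2.66 FPKM in HFOB (1.13 to 4.20), 2.74 in HFLN (1.18 to 4.29) and 3.50 in control (1.63 to 5.36). It differed least in its family, with plain ratios to control of 0.762 in HFOB and 0.783 in HFLN. Nr4a3 stood at 0.471 FPKM in HFOB (0.0789 to 0.863), 0.513 in HFLN (0.127 to 0.900) and 1.34 in control (0.5 to 2.17). Its plain ratios, 0.353 in HFOB and 0.385 in HFLN, were the lowest of all 10 genes, while its log2 folds were -0.67 and -0.63 because the level is low. The intervals overlapped those of control by 0.363 FPKM in HFOB and 0.4 in HFLN, and neither was called.

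Ier3 (RefSeq span: chromosome 17, 35821713 to 35822911), a small protein that modulates survival signals and ERK activity, stood at 23.0 FPKM in HFOB (12.8 to 33.2), 27.1 in HFLN (15.7 to 38.4) and 60.9 in control (33.9 to 88.0). It was called lower in HFOB, at a log2 fold of -1.37, with a gap of 0.690 FPKM between the intervals. In HFLN its log2 fold was -1.14 and the intervals overlapped by 4.51 FPKM, so it was not called. Csrnp1 (RefSeq span: chromosome 9, 119971163 to 119984742), a nuclear protein first described as induced by AXIN1, stood at 4.91 FPKM in HFOB (2.35 to 7.47), 6.43 in HFLN (3.38 to 9.48) and 13.4 in control (7.74 to 19.1). It was called lower in HFOB, at a log2 fold of -1.29, with the intervals 0.273 FPKM apart. That call was lost with a pseudocount of 5 FPKM, at a log2 fold of -0.90. In HFLN it stood at a log2 fold of -0.96 with overlapping intervals.

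Ier2, a nuclear protein induced by growth factors, was the most abundant of the 10 in every group. It stood at 47.3 FPKM in HFOB (29.6 to 64.9), 39.8 in HFLN (24.6 to 55.0) and 72.4 in control (42.7 to 102). Like Egr1 it was lowest in HFLN, at a log2 fold of -0.85 against control, with -0.60 in HFOB, and its intervals overlapped throughout. Klf4, a zinc-finger factor of epithelial differentiation and of stem cells, stood at 9.17 FPKM in HFOB (5.04 to 13.3), 10.4 in HFLN (5.85 to 14.9) and 11.4 in control (6.44 to 16.4). It differed least of all 10 from control in plain ratio, at 0.801 in HFOB and 0.908 in HFLN.

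Obese mice were set against chow-fed controls to ask what obesity on the diet goes with. Each of the 10 genes was lower in HFOB than in control, where 53.4% of protein-coding rows were lower. The calls were Nr4a1, Ier3 and Csrnp1, 3 of 10, with 0.272% of all 16929 rows called lower by the same rule (0.168% of protein-coding rows). With overlap allowed, 0.874% of all rows were lower by at least 2-fold, and the same 3 genes of the 10. At a difference of at least 1.5-fold on the log2 scale, with overlap allowed, 7 of 10 were lower, against 1.46% of protein-coding rows. The median log2 fold of the 10 was -0.66, and single values ran from -1.42 for Nr4a1 to -0.29 for Klf4. Counted from the lowest log2 fold among 13652 protein-coding rows, Nr4a1 ranked 20, Ier3 22 and Csrnp1 28, while Nr4a2 ranked 817 and Klf4 849. The genes were chosen with these differences known, so the counts and ranks describe them and give no support.

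HFLN mice were set against the same controls, a comparison of diets in which the HFLN mice had also been set apart by staying lean. All 10 genes were again lower, where 49.1% of protein-coding rows were, and 0 of 10 were called, with 0.219% of all 16932 rows called lower (0.0806% of protein-coding rows). No test with a p-value could be run, so the count of 0 rests on the intervals alone. At least 1.5-fold lower on the log2 scale, with overlap allowed, were 8 of 10, against 1.49% of protein-coding rows. At least 2-fold lower on that scale were Nr4a1 and Ier3, against 1.16% of all rows. The median log2 fold was -0.76, from -1.14 for Ier3 to -0.13 for Klf4. Among 13655 protein-coding rows Ier3 ranked 40, Nr4a1 49 and Csrnp1 69 from the lowest, and Klf4 ranked 2928. Both comparisons use the same control values, so a control group that happened to be high would enter both alike, and this cannot be told apart here.

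**Figure D3:**
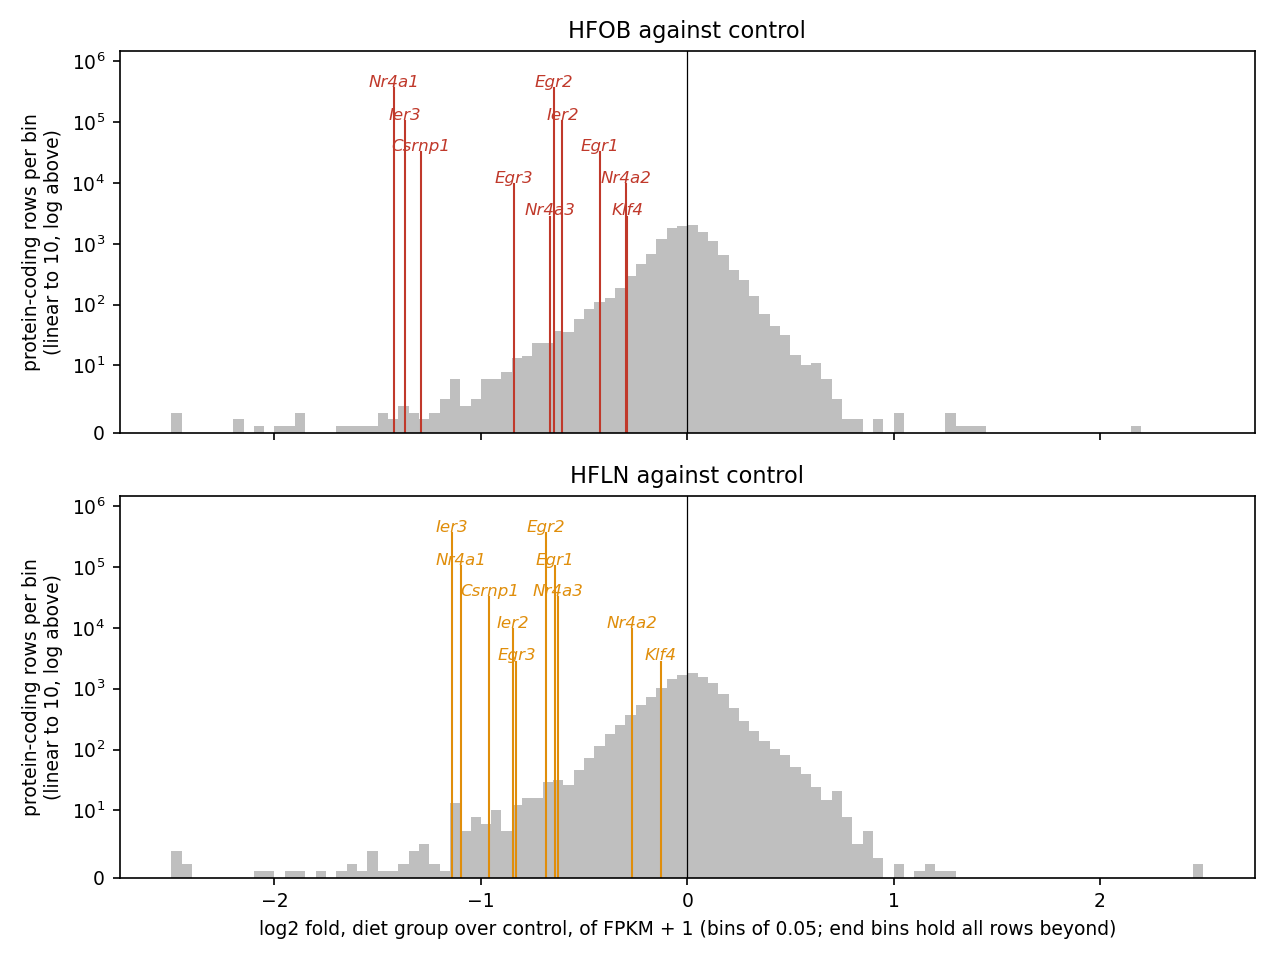
Grey bars count protein-coding rows by log2 fold over control of FPKM + 1, for HFOB (upper) and HFLN (lower), on an axis that is linear to 10 rows and logarithmic above. Coloured lines mark the 10 early genes, which all lie left of 0, from -1.42 to -0.29 in HFOB and from -1.14 to -0.13 in HFLN.

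Between HFOB and HFLN, which ate the same diet, the control group plays no part. The genes differed little: 7 of 10 were lower and 3 higher in HFOB, the median log2 fold was -0.03, and 0 of 10 were called, with 0.0827% of all 16931 rows called lower and 0.112% called higher. Of protein-coding rows 53.5% were lower. The 3 higher ones were Ier2 at a log2 fold of 0.24, Egr1 at 0.22 and Egr2 at 0.04. Csrnp1 and Nr4a1 lay lowest, at -0.33 and -0.32, followed by Ier3 at -0.23 and Klf4 at -0.16. Egr3, Nr4a2 and Nr4a3 lay between -0.04 and -0.01. Every one of these differences lies well within overlapping intervals, whose upper bounds stood 33.4% to 83.2% above the level across the 10 genes in HFOB and 34.6% to 75.3% in HFLN, so a difference of this size could not be shown here.

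Other immediate-early genes were lower as well. Of 40 listed, 38 were considered, and 34 of them were lower in HFOB than in control, with 4 called, and 34 were lower in HFLN, with 3 called. Their median log2 folds were -0.51 in HFOB and -0.50 in HFLN. They were listed with earlier results of these data known, so the counts describe them and give no support. Of protein-coding rows 53.4% were lower in HFOB and 49.1% in HFLN, and of all rows 0.272% and 0.219% were called lower. Called in both were Arc, which acts at neuronal synapses and stood at 0.894 FPKM in HFOB and 1.05 in HFLN against 6.43 in control, Fosb, an AP-1 subunit at 0.826 and 1.08 against 5.75, and Dusp5, a phosphatase of ERK at 6.80 and 6.95 against 18.7. Errfi1, a feedback inhibitor of the EGF receptor, was called in HFOB, at 26.0 FPKM against 59.9 in control, and stood at 29.2 in HFLN. Not every gene of this class was lower, and Sgk1, a kinase induced by steroids and serum, had 97.8 FPKM in HFOB and 94.4 in HFLN against 83.1 in control.

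Genes listed for the machinery upstream of immediate-early genes had median log2 folds near 0. Of protein-coding rows 53.4% were lower in HFOB and 49.1% in HFLN than in control. Of all rows 0.272% and 0.219% were called lower, so 0 calls in lists this short says little about their genes. Of 18 kinase and kinase-regulator genes on the signal route, 14 were lower in HFOB and 11 in HFLN than in control, with 0 called and median log2 folds of -0.07 and -0.01. The widest were Rps6ka2, an ERK-activated kinase, at -0.38 in HFOB, and Map2k2, which activates ERK, at -0.31 in HFLN. Of 17 genes for transcription factors and coactivators that act on these promoters, 8 were lower in HFOB and 9 in HFLN, with 0 called and medians of 0.02 and -0.03. Crem, a cyclic AMP responsive factor that is itself inducible, was the widest at -0.41 in HFOB and -0.31 in HFLN. Srf stood at 20.7 FPKM in HFOB, 19.7 in HFLN and 22.1 in control, and Creb1 at 8.87, 9.48 and 8.23. These are RNA levels and say nothing of phosphorylation. Of 8 genes considered for gonadotropin receptors, EGF-like ligands and related signals, 5 were lower in HFOB and 4 in HFLN, with 0 called. Lhcgr, the receptor of luteinising hormone, stood at 104 FPKM in HFOB and 143 in HFLN against 134 in control, and Areg, an EGF-like ligand, at 0.581 and 1.62 against 1.42.

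Partners and paralogs mostly stood near control. Nab2, the inducible corepressor of EGR factors, stood at 26.2 FPKM in HFOB and 29.3 in HFLN against 35.9 in control, while Nab1 stood at 15.4 and 15.9 against 16.2. Rxra, which pairs with NR4A1 and NR4A2, stood at 17.7 and 15.9 against 16.0. Of 14 paralogs considered, 9 were lower in HFOB and 10 in HFLN, with 0 called and medians of -0.06 and -0.10. The shares of protein-coding rows that were lower were 53.4% and 49.1%. With 0.272% and 0.219% of all rows called lower, 0 calls says little about these genes. The widest was Ier5l, a relative of Ier2, at a log2 fold of -0.33 in HFOB and -0.77 in HFLN. Egr4, the remaining Egr gene, did not reach 1 FPKM in any group.

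Of 10 genes described as EGR targets in other settings, 9 were lower in HFOB and 8 in HFLN, with median log2 folds of -0.40 and -0.30. Among protein-coding rows 53.4% and 49.1% were lower, and the target lists were chosen with earlier results known. Of all rows 0.272% and 0.219% were called lower. Cdkn1a, an inhibitor of cyclin-dependent kinases with several other known regulators, was called lower in HFOB, at 16.3 FPKM against 49.9 in control, and stood at 22.3 in HFLN. Of 6 genes described as NR4A targets in steroid-making cells, 5 were lower in each diet group and 0 were called. Cyp17a1, which makes androgen precursors, stood at 191 FPKM in HFOB and 183 in HFLN against 346 in control. The row of Akr1c18, which breaks down progesterone and shares its row with Akr1c12, stood at 1496 and 1084 against 2672. Its lower bound was 0 in every group. Star, which brings cholesterol into mitochondria, stood the other way, at 169 and 230 FPKM against 147.

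**Figure D4:**
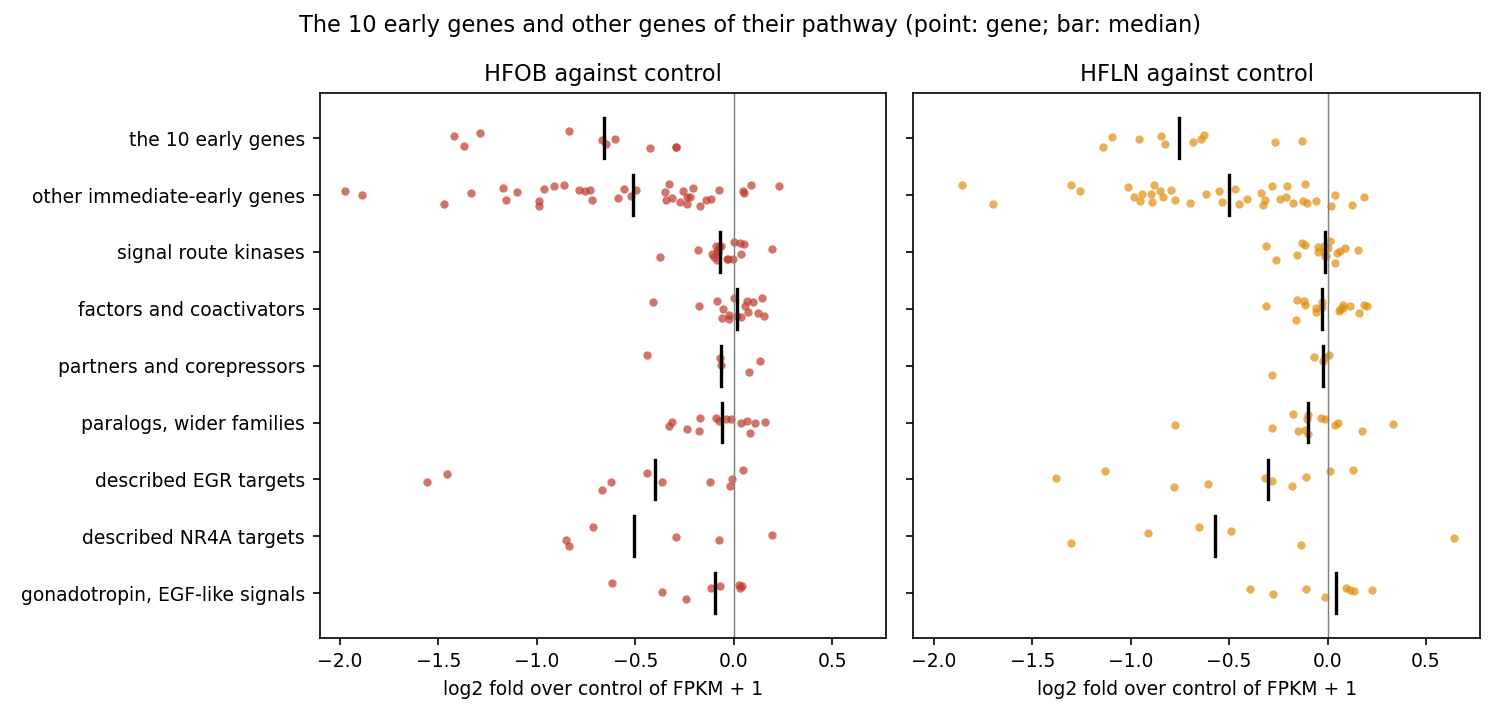
Log2 folds over control of FPKM + 1 for the 10 early genes and 8 lists of other genes of their pathway, in HFOB (left) and HFLN (right). Each point is a gene and each black bar the median of its list: the early genes and the other immediate-early genes have medians of -0.66 and -0.51 in HFOB and of -0.76 and -0.50 in HFLN, and the kinases and transcription factors lie near 0.

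Among 9346 other protein-coding genes with a mean of at least 5 FPKM, the 5 nearest to the median pair of log2 folds of the 10 genes, by straight-line distance over both comparisons with control, were Tgfb1, H2az1, Hspa1b, Gadd45a and Flnc. Tgfb1, a growth factor, stood at 36.6 FPKM in HFOB and 32.8 in HFLN against 57.0 in control, at a distance of 0.04. Gadd45a, a growth-arrest gene, stood at 116 and 115 against 191, and the heat-shock gene Hspa1b, which has a near-identical copy and is uncertain, at 23.5 and 22.5 against 39.3. This likeness rests on 3 group values per gene.

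Levels of some other cell type markers were not alike in the same groups, but 0 red blood cell, luteal, oviduct, macrophage or endothelial markers were called. Of all rows 0.272% were called lower in HFOB and 0.219% in HFLN against control. Of protein-coding rows 53.4% and 49.1% were lower at any size. The 4 red blood cell rows considered were all lower in both diet groups, with summed levels of 183 FPKM in HFOB and 138 in HFLN against 246 in control, and their part in the early genes' differences was not tested. The 4 luteal rows summed to 1703 and 1345 against 2921, almost all of it the shared row of Akr1c18. The interval of that row began at 0 in every group. All 4 luteal rows were lower in HFOB than in control, while 2 were lower and 2 higher in HFLN. The part of the luteal rows was not tested either. The 5 oviduct markers were all lower in HFOB and all higher in HFLN, with sums of 341 and 517 against 420, while the 10 early genes were lower in both. The 5 adipocyte markers summed to 186 and 116 against 111, with 4 of 5 higher in HFOB and 2 of 5 in HFLN. The 4 macrophage markers summed to 115 and 113 against 114, most of it the row that Cd68 shares with Eif4a1. That shared row stood at 92.4 and 91.0 FPKM against 92.7. The 4 endothelial markers summed to 80.4 and 85.9 against 88.8. The T cell marker Cd4 stood at 1.02 and 1.15 FPKM against 0.944, and the other T and B cell markers stayed under 1 FPKM.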

How the data were processed

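Ovarian RNA of 9 mice was sequenced from libraries made with a stranded messenger RNA kit, per the labels' protocols. Build mm10 is listed, per the submitters' processing notes, and with it, with no role given, Cuffdiff 2.2.1.3, Cufflinks 2.2.1.0, TopHat2 2.1.0 and Trimmomatic 0.32.3. No source used here states the annotation, how libraries were scaled or how strand was handled, so overlapping genes may share reads. Per the file headers, the authors deposited FPKM per gene and group, with lower and upper bounds in FPKM and a status.

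From these, RefSeq identifiers were matched to symbols of GRCm38.p6 (99.2% of 36886). Per symbol the row with the highest mean FPKM was used. Rows of at least 1 FPKM in a group and status OK were compared on log2(FPKM + 1), and called where the fold was at least 2 and the intervals lay apart. The code of the rule was checked on simulated data, made by giving control values known folds. That check does not measure how often the rule errs between animals. Upstream windows of 250 bases came from RefSeq, exons from GENCODE M21. Python 3.11.15, numpy 2.4.6, pandas 2.3.3 and matplotlib 3.10.9 were used. No value per animal was used, so the linear model planned for such values was not run.

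The members and gene lists were chosen with earlier results of these data known. Named were the 10 members, in each list the called genes and the 2 with the widest fold per comparison, and the 5 genes nearest in pattern. Amh, Gdf9, Ovgp1, Adipoq, Sgk1, Srf, Creb1, Nab1, Rxra, Star and Egr4 were named after their values were seen, and some genes that met the rule are given by counts alone or are not reported here. Oocyte, granulosa, theca, surface epithelium, smooth muscle, neutrophil, red blood cell, luteal, oviduct, macrophage, endothelial and T cell markers gave no call. The adipocyte gene Lep was called higher in HFOB than in both other groups.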

Additional observations from a re-analysis of the deposited data

How the results depend on the processing

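No paired analysis was possible because the table holds 1 value per group, and for the same reason leaving out an animal was not possible. Pseudocounts of 0.1 and 5 FPKM, no filter on low values, a filter at a mean of 5 FPKM, rescaled groups and summed rows kept the direction of every member's log2 fold in all 3 comparisons (168 values, 0 reversed). Only rescaling could have reversed a direction, because the other settings cannot change which group has the higher FPKM for these single-row genes. The count of reversals is therefore no test of how firm the directions are. With a mean of at least 5 FPKM, 6 members remained, of which 6 were lower in HFOB and 6 in HFLN than in control, and 4 in HFOB against HFLN. With overlap allowed, 2 members were lower by at least 2-fold in HFLN against control. The share of all rows called lower changed with the rule. For HFOB against control it was 0.142% with a pseudocount of 5 FPKM, 0.138% without a filter, 0.874% with overlap allowed and 0.168% of protein-coding rows. For HFLN against control the same shares were 0.13%, 0.111%, 1.16% and 0.0806%. For HFOB against HFLN they were 0.0413%, 0.0419%, 0.52% and 0.022%, with 0.0443% at a mean of at least 5 FPKM. The share of protein-coding rows was added after the data were seen. A pseudocount moves low genes most: Nr4a3 in HFOB against control had a log2 fold of -1.33 with 0.1 FPKM and -0.21 with 5 FPKM. The median of the members ran from -1.05 to -0.37 in HFOB and from -0.98 to -0.47 in HFLN over these alternatives. The depth behind these values is unknown, and wide intervals limit what can be called.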

Other observations

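The leading member of each family took a different share of its family's summed FPKM across groups. Egr1 held 92.5% of the summed Egr1, Egr2 and Egr3 FPKM in HFOB, 91.5% in HFLN and 88.9% in control, since Egr2 and Egr3 stood further below control in plain ratio than Egr1 did. Nr4a1 held 83.0% of its family's FPKM in HFOB, 85.7% in HFLN and 89.8% in control, since Nr4a2 stood close to control. Ier2 had 2.05 times the FPKM of Ier3 in HFOB, 1.47 times in HFLN and 1.19 times in control. These shares carry the intervals of the single genes and were not tested.

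The 2 diet groups were not in the same order for every early gene. Egr1 and Ier2 were lowest in HFLN, as were the AP-1 genes Junb, at 45.0 FPKM in HFOB, 34.0 in HFLN and 82.5 in control, and Fosl1, at 10.5, 7.38 and 12.6. Nr4a1, Ier3 and Csrnp1 were lowest in HFOB, as were Atf3, a stress-induced factor, at 5.82, 6.91 and 13.7 FPKM, and Btg2, an antiproliferative gene, at 11.7, 13.6 and 27.2. Of the 38 other immediate-early genes, 22 were lower and 16 higher in HFOB than in HFLN, and 0 were called. Socs3, a feedback inhibitor of cytokine signals, had the widest of these differences, at 13.6 FPKM in HFOB against 31.4 in HFLN, with 39.4 in control. These genes were chosen after their values were seen.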
